A study of Rattus norvegicus with 53 samples.

Results

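Ribosome biogenesis factors are the proteins that process ribosomal RNA and assemble it with ribosomal proteins without being part of the finished ribosome. A list of 58 such genes was followed in L6 myotubes, the fused form of a rat skeletal muscle line. The list was chosen with earlier results of these data known, so its counts are not independent evidence. A listed gene was matched to the arrays by its symbol alone. It was measured at the probe set that carries this single symbol in the platform annotation, the brightest one by mean over all arrays where a gene had several. Of the 58 genes, 57 had such a probe set (Npm1 had none), and 56 of them were bright enough to be tested, among 11577 tested genes in all. The genes were sorted by known role into the core proteins of box C/D particles (3 genes) and box H/ACA particles (4 genes), the particle chaperone Nolc1, the processome and 40S assembly (23 genes), 60S assembly (23 genes) and several nucleolar steps (4 genes).

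The labels call the cells myoblasts, although they had been differentiated. The insulin-treated cultures were given serum-free medium with 20 nM insulin, and the control cultures had the same medium with 0 nM insulin. Whether the control plates got fresh medium at time 0 is not settled by the methods. All plates had been differentiated in low serum and left in serum-free medium before the start, so the controls lacked serum as well as insulin. RNA of each culture was taken at time 0 and then every 20 min, and 3 consecutive samples were pooled, which gives 1 array for each of hours 1 to 8. The experiment was done on 3 separate days, here called repeats a, b and c, always with this 1 line. In all, 53 arrays cover the 18 groups of culture and time, 3 in each, but the insulin culture has only repeats b and c at hour 3.

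Ribosomes are built in the nucleolus from a long precursor RNA made by RNA polymerase I. Small nucleolar RNPs guide its chemical modification, box C/D particles directing methylation of the ribose and box H/ACA particles the conversion of uridine to pseudouridine, while a large particle called the processome folds and cleaves the part that becomes the 40S subunit and a separate set of factors matures the 60S subunit. Growth signals, insulin among them, are known to stimulate the making of ribosomes in muscle cells, and many genes of the process carry a binding sequence of the transcription factor MYC, the E-box.

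The values are log2 levels from Affymetrix rat arrays, on which a difference of 1 is a doubling. Array medians lay between 6.30 and 6.37. Markers of myotubes were bright, with a median level of 10.99 over 15 measured genes. Markers of proliferating cells had a median of 9.09 over 17 genes, those of fibroblasts 12.05 over 7 genes, and those of endothelial cells and adipocytes (0 genes tested) stood at 4.27 and 4.26, below the lowest tested level of 5.04. Over hours 5 to 8 the averages of the proliferation markers ran from 8.83 to 9.61 on insulin arrays and from 8.70 to 9.70 on control arrays, and those of the myotube markers from 9.75 to 10.87 on insulin arrays and from 9.84 to 10.95 on control arrays. In both lists 0 genes passed the limma test described next, 0 also at an unadjusted p under 0.05. Of 4 tested markers of undifferentiated myoblasts 0 passed, and their average ran from 7.72 to 7.99 on insulin arrays and from 7.38 to 7.82 on control arrays. Of the 7 fibroblast markers Pdgfra was lower, by a difference of -0.32 (adjusted p = 0.0158), and the average of that list ran from 10.38 to 10.90 on insulin arrays and from 10.57 to 11.00 on control arrays. Of 4 tested macrophage markers 0 passed. The part of these cell types in the results was not tested, and in such bulk RNA fewer cells of a type and less RNA per cell cannot be told apart.

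Over hours 5 to 8 the ribosome biogenesis genes were higher in insulin-treated than in control cultures. By limma, which fits 1 mean to each culture and hour, 37 of the 56 tested genes were higher with a Benjamini-Hochberg adjusted p under 0.05 and 0 were lower, while 4.69% of all 11577 genes were higher and 6.50% lower. The median difference of the 56 genes was 0.32 on the log2 scale, against -0.0013 for all genes, and 54 of the 56 lay above 0. In repeats a, b and c the medians were 0.29, 0.35 and 0.34, and 52 of the 56 genes were above 0 in every repeat, which 18.3% of all genes were. For 10 of the 56 genes all 12 insulin arrays of hours 5 to 8 were above all 12 control arrays, as in 0.553% of all genes, and for 34 of them insulin was higher in all 12 pairs of the same repeat and hour, as in 4.07% of all genes. The number of calls fell most without repeat b, where 14 genes passed, at a median of 0.33. Without repeat c 26 passed and without repeat a 40, and with 1 value per repeat in place of the hourly arrays 20 did. No share of all genes is given for these settings. With the repeat as a block 50 genes were higher (10.3% of all genes), and of the 13 genes that only the block added, Fbl alone passed with 1 value per repeat. Relative to the difference at time 0, before insulin, the median was 0.26 with 54 of 56 genes above 0, but 0 genes passed in limma (0.0346% of all genes, 19 of the 56 at an unadjusted p under 0.05), and with the repeat as a block Nop58, Rrp9 and Bysl did, 3 of the 56 against 0.665% of all genes.

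**Figure D1:**
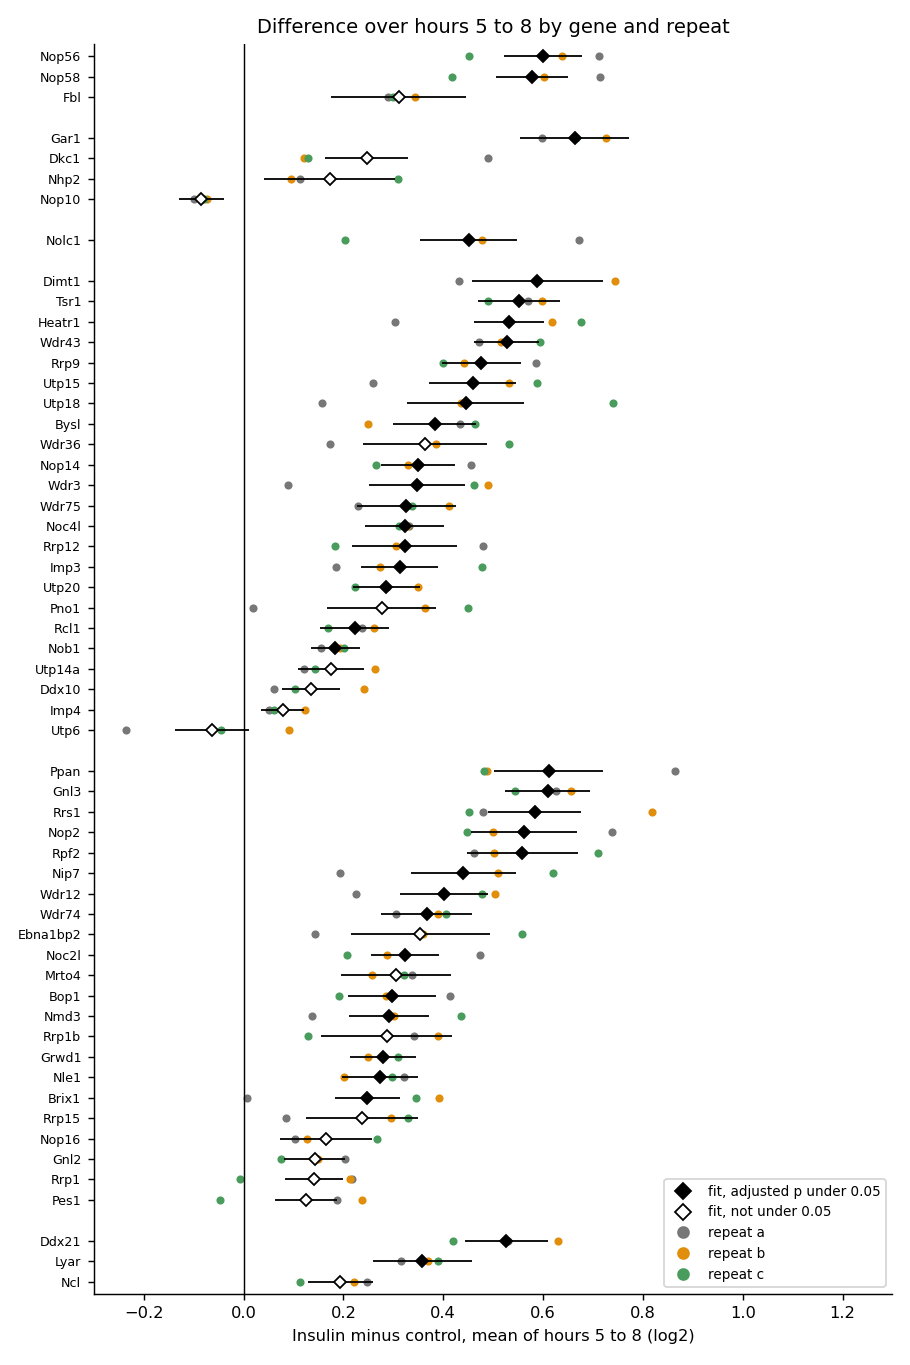
Insulin minus control over hours 5 to 8 (log2, horizontal axis) for the 56 tested genes, grouped by role from box C/D proteins at the top to factors of several steps at the bottom. Diamonds are the fitted difference with its SE, filled where the adjusted p is under 0.05, and dots are repeats a, b and c; nearly all lie right of 0, with Nop10 and Utp6 to its left.

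The difference between cultures was smaller than its spread over the repeats through hour 2 and larger from hour 4. Averaged over the 56 genes within each repeat, it had a value of 0.043 ± 0.096 at time 0 (SD, n = 3 repeats), then -0.035 ± 0.071 at hour 1 and 0.011 ± 0.061 at hour 2. The average reached 0.22 ± 0.054 at hour 4, then 0.32 ± 0.054, 0.33 ± 0.016 and 0.33 ± 0.064 at hours 5, 6 and 7, and 0.40 ± 0.0032 at hour 8, where the repeats stood at 0.40, 0.40 and 0.39. From hour 4 on, the average was above 0 in all 3 repeats. At hour 3 it was 0.10 ± 0.014 in repeats b and c (n = 2), and the fit, which sets these 2 insulin arrays against 3 control arrays, gave a higher median of 0.21 at that hour.

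**Figure D2:**
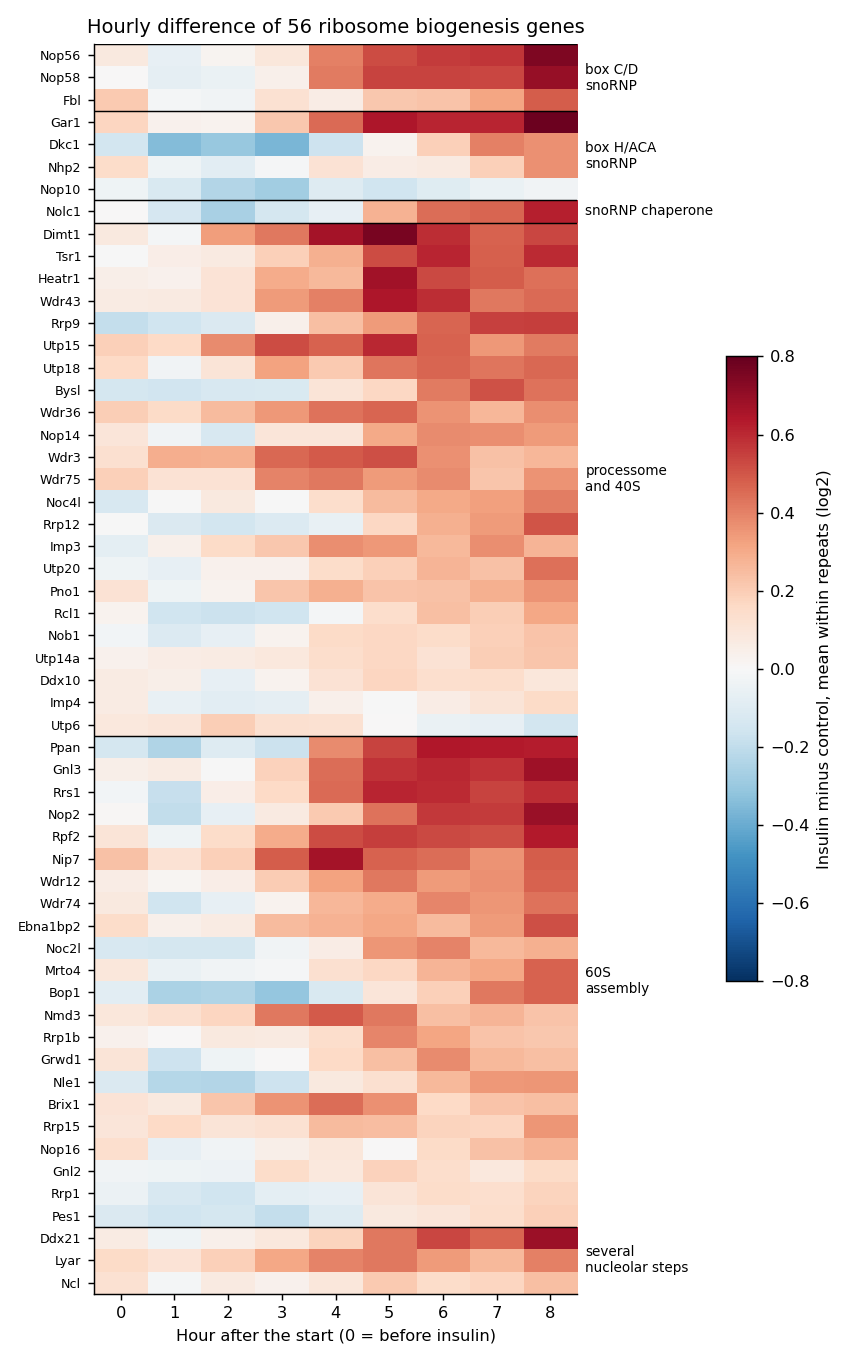
Difference between insulin-treated and control cultures within repeats, averaged (colour, log2), for 56 genes (rows, by role) at time 0 and hours 1 to 8 (columns). Colours are pale through hour 2 and mostly red from hour 4; hour 3 holds repeats b and c only.

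Over hours 1 and 2, 0 of the 56 genes passed (limma; 0% of all genes, and 5 of the 56 at an unadjusted p under 0.05), and at time 0 likewise 0 passed (0% of all genes, 0 at an unadjusted p under 0.05). With the repeat as a block Nop10 was lower over hours 1 and 2 (1 of 56, against 1.69% of all genes). The difference of the differences, hours 5 to 8 minus hours 1 and 2, was positive in 55 of 56 genes with a median of 0.34, and 15 passed against 1.17% of all genes (33 with the repeat as a block, against 7.61%). In this early-to-late test 0 passed without repeat b, with 1 value per repeat or without the arrays of repeat b at hours 0 to 5, and 3 passed without repeat c. At single hours 2 genes passed at hour 5 (0.0950% of all genes), 1 at hour 6 (0.0691%), 0 at hour 7 (0.0518%) and 4 at hour 8 (0.250%), and 0 at hours 1 to 4 (limma, 0, 1, 7 and 15 of the 56 higher at an unadjusted p under 0.05). These were Ddx21, Gnl3, Heatr1, Nop56, Nop58 and Wdr43, 6 genes, and the count was 0 without repeat b, 2 without repeat c and 1 without the arrays of repeat b at hours 0 to 5. The unadjusted counts have no share of all genes beside them and do not date an onset. The count of 7 at hour 3 sets insulin arrays of repeats b and c against controls that include repeat a. Averaged over the 56 genes, that control array stood at 9.07, against 9.35 in repeat b and 9.42 in repeat c. With the repeat as a block 4 genes passed at hour 4 (0.397% of all genes), 11 at hour 5 (1.51%), 11 at hour 6 (1.00%), 8 at hour 7 (0.803%) and 25 at hour 8 (2.32%).

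Averaged over hours 1 to 8, 32 of the 56 genes were higher in the insulin-treated cultures (5.75% of all genes) and 1 was lower (8.34% of all genes), with a median of 0.22. The gene that was lower was Nop10. Without repeat b 8 were higher, without repeat c 21, and with 1 value per repeat 2; the call of Nop10 was lost without repeat b, without its arrays of hours 0 to 5 and with 1 value per repeat.

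Each culture was also set against its own time 0. In the insulin-treated culture over hours 5 to 8, 0 of the 56 genes passed against time 0 (limma; 1.61% of all genes in either direction, 2 of the 56 at an unadjusted p under 0.05), at a median change of -0.055, and with the repeat as a block Lyar and Nop16 were lower, 2 genes against 4.53% of all genes, but 0 were with 1 value per repeat. In the control culture over hours 5 to 8, 54 of the 56 genes were below time 0, with a median change of -0.33. No share of all genes below time 0 and no median over all genes is given for this change. By the test 19 were lower, against 3.05% of all genes (38 with the repeat as a block, against 8.08%, and 10 with 1 value per repeat). The repeats differed in this. The average level of the 56 genes in the insulin-treated culture changed by 0.13, -0.12 and -0.19 in repeats a, b and c, and that of the control culture by -0.054, -0.43 and -0.59. In repeat a the control culture had started at 9.10, against 9.48 in repeat b and 9.55 in repeat c. At time 0 of repeat a the cultures differed in marker genes as well: the median difference, insulin minus control, of the 17 proliferation markers was 0.63 in repeat a, with 15 above 0, against 0.039 and -0.025 in repeats b and c, and that of the 15 myotube markers was -0.22 in repeat a, against 0.0031 and 0.078. The part of these markers in the comparisons with time 0 was not tested. The number of genes lower in the control culture was 41 without repeat a, 0 without repeat b and 4 without repeat c.

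**Figure D3:**
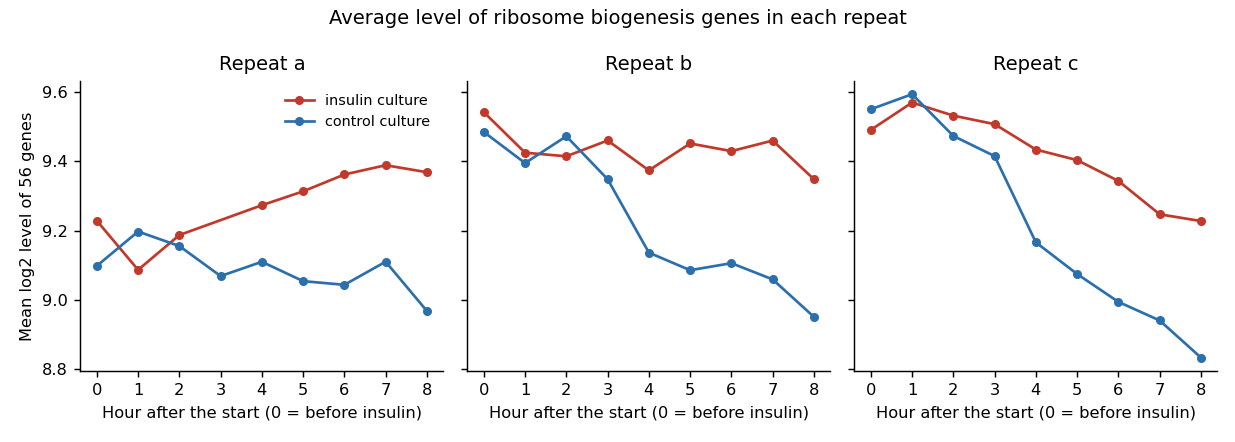
Mean log2 level of the 56 genes (vertical axis) by hour in the insulin-treated (red) and control (blue) cultures, 1 panel a repeat. At hour 8 the insulin line stands at 9.37, 9.35 and 9.23 in repeats a, b and c and the control line at 8.97, 8.95 and 8.83, while at time 0 the control line stands at 9.10 in repeat a and at 9.48 and 9.55 in repeats b and c; the insulin point of hour 3 of repeat a is not among the arrays.

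**Figure D4:**
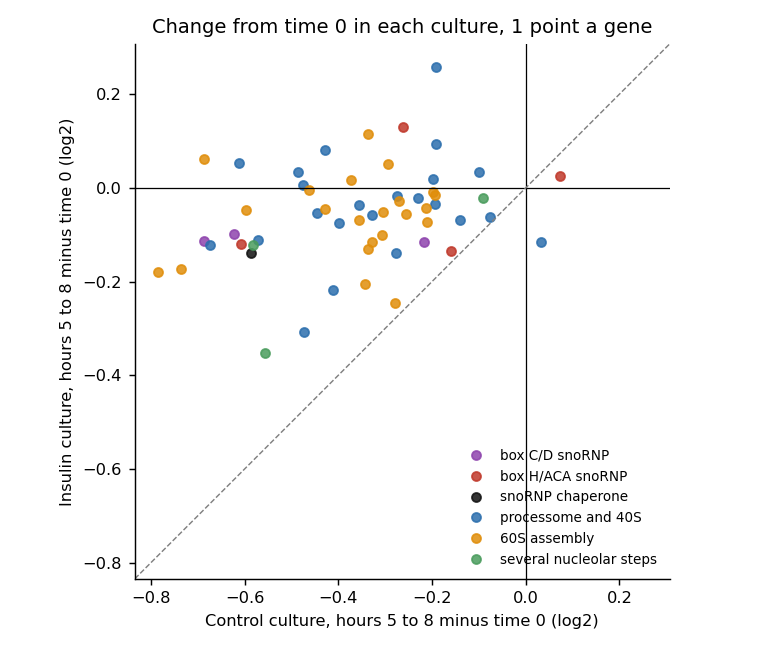
Change from time 0 to hours 5 to 8 in the insulin-treated culture (vertical axis, log2) and in the control culture (horizontal axis, log2), 1 point a gene, coloured by role. Of the 56 points 54 lie left of 0 on the horizontal axis, and 54 lie above the dashed line of equal change.

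The promoters of these genes were searched for the E-box, which the choice of the list did not use. A promoter window of 300 bases, 250 before to 50 after the gene start in RefSeq on build GRCr8, was found for 53 of the 57 genes (Bop1, Wdr43, Rrs1 and Gnl2 had no entry). The E-box CACGTG, which reads the same on both strands, was present in 20 of the 53 windows (37.7%), against 8.91% of the 11734 windows of genes on the array and 6.42% of all 33469 windows. It was present in 12 of 34 windows of genes called higher over hours 5 to 8 (35.3%) and in 7 of 18 windows of tested genes without that call (38.9%). Of the tested genes without a call, all but Nop10 and Utp6 had a difference above 0. This split therefore does not part raised genes from others. The GC content of the windows had a median of 56.7% for the 53 genes and of 60.0% for genes on the array. Of the 21 matches in the 20 windows, 16 began within 50 bases of the gene start and 11 after it. The window ends 50 bases after the start, so those 11 lie within that distance by construction. Positions of matches in the windows of other genes are not given. A match is a description of the sequence and says nothing of binding.

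The 250 bases before the start of Gnl3 and Rpf2 are shown, with the E-box in capitals, because both genes had insulin arrays entirely above control arrays and a match that lies close to the start. They are not typical of the genes without overlap between cultures. Nop58, Nop56, Gar1, Heatr1, Utp15, Rrp9 and Ddx21 also had no overlap, and their windows held no match. Wdr43, likewise without overlap, had no window. Both genes are on the minus strand, and the match begins 25 bases before the start of Gnl3 (chr16:6219783-6220032) and 10 bases before that of Rpf2 (chr20:45205984-45206233).
Gnl3: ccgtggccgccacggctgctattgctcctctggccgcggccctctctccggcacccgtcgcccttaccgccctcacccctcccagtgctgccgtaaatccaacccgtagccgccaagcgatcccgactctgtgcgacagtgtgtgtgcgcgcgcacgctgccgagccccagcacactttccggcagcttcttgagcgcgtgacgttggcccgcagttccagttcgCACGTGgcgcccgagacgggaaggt
Rpf2: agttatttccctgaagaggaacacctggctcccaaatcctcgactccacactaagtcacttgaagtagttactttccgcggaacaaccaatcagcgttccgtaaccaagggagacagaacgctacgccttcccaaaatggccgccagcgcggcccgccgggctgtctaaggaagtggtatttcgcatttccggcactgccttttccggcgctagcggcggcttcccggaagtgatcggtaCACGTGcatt

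For comparison, 30 bases around the match are given for 3 more genes that were higher with insulin and for 2 that did not pass, Fbl and Pes1. The matches begin 39 bases after the start of Nop2 (chr4:159618986-159619015, plus strand), 21 after that of Tsr1 (chr10:60258798-60258827, plus strand), 33 after that of Bysl (chr9:20880361-20880390, plus strand), 22 after that of Fbl (chr1:92597416-92597445, plus strand) and 50 before that of Pes1 (chr14:83074284-83074313, plus strand).
Nop2: tgaactcttccccaagtgCACGTGgagcgg
Tsr1: gtttactcggtgCACGTGggcagttagaat
Bysl: tagccggcttcaCACGTGtaaactttgtgg
Fbl: ggcgcttttttcCACGTGtgaaagcctgag
Pes1: ccctaagcggggCACGTGcggtaggaagta

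Of the box C/D core proteins, Nop58 and Nop56, the paired proteins that hold the particle together, were higher with insulin over hours 5 to 8. Nop58 levels ran from 10.70 to 11.14 with a median of 10.83 on the 12 insulin arrays, and from 10.05 to 10.51 with a median of 10.33 on the 12 control arrays, so that the cultures did not overlap. Its difference was 0.58 (SE 0.073, limma adjusted p = 3.05e-07), or 1.49-fold, and 0.71, 0.60 and 0.42 in repeats a, b and c. At hour 8 its insulin arrays read 11.14, 10.84 and 10.81 in repeats a, b and c and its control arrays 10.30, 10.05 and 10.35. The difference of Nop56 came to 0.60 (SE 0.078, adjusted p = 5.82e-07). Its insulin arrays, from 10.59 to 11.22, likewise lay above its control arrays, from 10.12 to 10.53. The methyltransferase of the same particle, Fbl, was at 0.31 (SE 0.14, adjusted p = 0.166). Its ranges overlapped although insulin was higher in 12 of 12 pairs of the same repeat and hour, and it passed with the repeat as a block (adjusted p = 2.70e-06) and with 1 value per repeat (adjusted p = 0.0422). The control culture fell below time 0 by 0.69 in Nop58 (adjusted p = 1.20e-04) and by 0.62 in Nop56 (adjusted p = 9.30e-04). The median change of the 3 box C/D genes was -0.13 in repeat a, against -0.78 and -0.73 in repeats b and c. Both falls passed with 1 value per repeat, but neither did without repeat b. That of Nop56 was also lost without repeat c and without the arrays of repeat b at hours 0 to 5.

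Of the 4 core proteins of box H/ACA particles, 1 was higher over hours 5 to 8 (4.69% of all genes) and 0 were lower (6.50%). Gar1, which takes part in the release of the modified RNA, had the largest difference of all 56 genes, 0.66 (SE 0.11, limma adjusted p = 4.10e-05), or 1.58-fold. Its 12 insulin arrays read 9.53 to 9.90 with a median of 9.70, and its 12 control arrays 8.86 to 9.30 with a median of 9.06. At hour 8 Gar1 stood at 9.65, 9.71 and 9.70 in the insulin-treated cultures and at 8.86, 8.98 and 8.86 in the controls, so the repeats nearly coincided within each culture. Dkc1, the pseudouridine synthase itself, read 9.66 to 10.42 with a median of 9.87 on insulin arrays and 9.43 to 10.11 with a median of 9.78 on control arrays. These ranges overlapped, and its difference was 0.25 (SE 0.084, adjusted p = 0.0550, 0.0211 with the repeat as a block and 0.241 with 1 value per repeat), with 0.49 in repeat a against 0.12 and 0.13 in repeats b and c. The early-to-late change of Dkc1 was larger, 0.57 (SE 0.14, adjusted p = 0.0284), and its difference over hours 1 and 2 was -0.32.

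Nhp2, which binds the guide RNA, was at 0.17 (SE 0.13, adjusted p = 0.531, 0.00537 with the repeat as a block and 0.333 with 1 value per repeat). Nop10, the smallest protein of the particle, was lower with insulin over hours 1 to 8. At hour 2 Nop10 read 11.03, 11.04 and 10.86 in the insulin-treated cultures and 11.22, 11.33 and 11.09 in the controls, lower in each repeat. Over hours 5 to 8 it read 11.01 to 11.29 with a median of 11.14 on insulin arrays and 11.14 to 11.35 with a median of 11.21 on control arrays, and insulin was higher in 2 of 12 pairs. The difference of Nop10 over hours 1 to 8 was -0.13 (adjusted p = 0.00593), while that over hours 5 to 8, -0.084 (SE 0.045), had an adjusted p of 0.295.

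**Figure D5:**
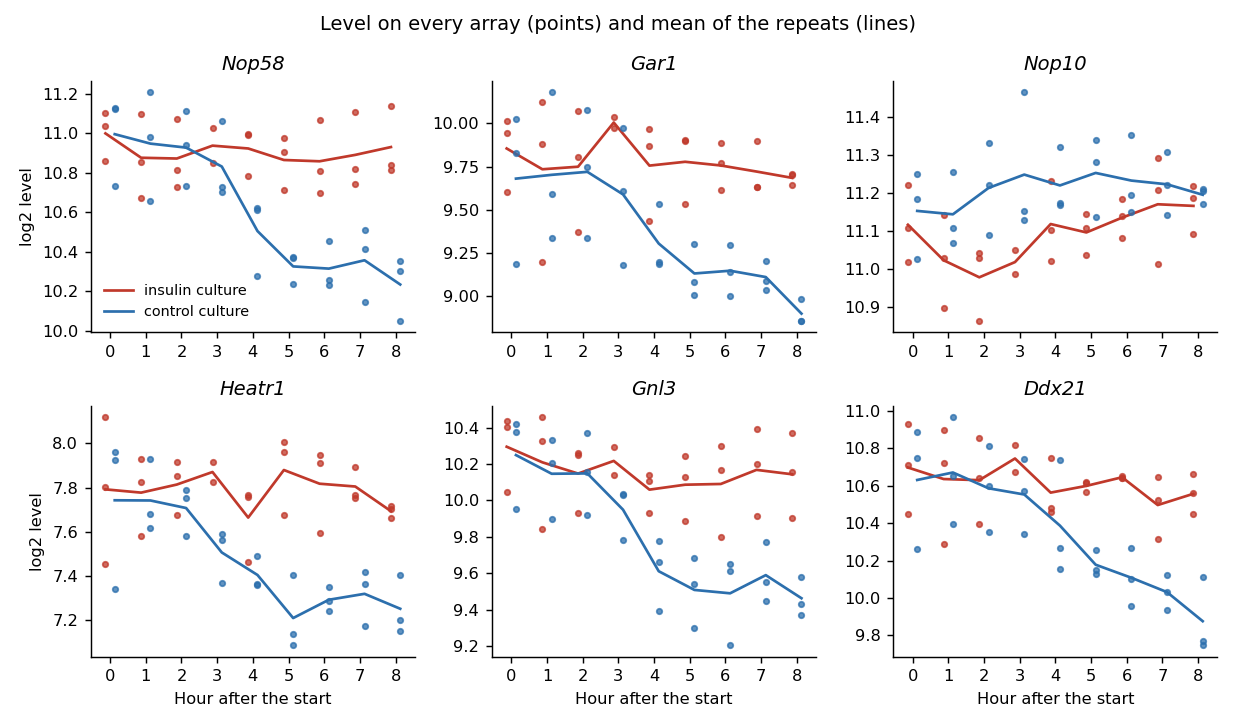
log2 level on every array (points) and mean of the repeats (lines) by hour for Nop58, Gar1, Nop10, Heatr1, Gnl3 and Ddx21, insulin-treated in red left of control in blue. From hour 5 the red points lie above the blue ones in 5 of the 6 genes, while those of Nop10 overlap.

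Nolc1, a chaperone of both kinds of particle, was higher over hours 5 to 8 by 0.45 (SE 0.097, limma adjusted p = 0.00138). It read 10.01 to 10.83 with a median of 10.53 on insulin arrays and 9.75 to 10.54 with a median of 10.02 on control arrays, ranges that overlapped, although insulin was higher in 12 of 12 pairs. The repeats were unequal, at 0.67, 0.48 and 0.20, and without repeat b Nolc1 did not pass, at 0.44.

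Of the 23 genes of the processome and 40S assembly, 17 were higher over hours 5 to 8 (4.69% of all genes) and 0 lower (6.50%). The median difference was 0.33, with a range from -0.063 to 0.59. Wdr43 and Heatr1, which belong to the group of processome proteins that bind the precursor first, had the smallest p-values. Wdr43 read 8.71 to 8.95 with a median of 8.85 on insulin arrays and 8.18 to 8.58 with a median of 8.30 on control arrays, without overlap, a difference of 0.53 (SE 0.066, limma adjusted p = 2.80e-07). Heatr1 read 7.59 to 8.01 with a median of 7.76 on insulin arrays and 7.08 to 7.42 with a median of 7.26 on control arrays, again without overlap, and differed by 0.53 (SE 0.071, adjusted p = 8.89e-07), with 0.30 in repeat a and 0.62 and 0.68 in repeats b and c. At hour 5 Heatr1 stood at 7.67, 7.96 and 8.01 in the insulin-treated cultures and at 7.40, 7.08 and 7.14 in the controls. Utp15, of the same group, was higher by 0.46 (SE 0.087, adjusted p = 3.05e-04), and Rrp9, a protein of the U3 particle that starts the cleavages, by 0.48 (SE 0.079, adjusted p = 4.47e-05). Both were without overlap between cultures.

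The largest difference of the 40S group was that of Dimt1, which dimethylates adenosines of the 18S RNA, at 0.59 (SE 0.13, adjusted p = 0.00200). Tsr1, a late 40S factor whose site is shown above, was at 0.55 (SE 0.082, adjusted p = 8.17e-06). Of the late factors, Bysl was higher by 0.38 (SE 0.083), Nob1, the nuclease that trims the 3′ end of 18S RNA, by 0.18 (SE 0.049, adjusted p = 0.0106), and its partner Pno1 was at 0.28 (SE 0.11, adjusted p = 0.114, 7.89e-04 with the repeat as a block and 0.195 with 1 value per repeat). Imp3 was higher by 0.31 (SE 0.077, adjusted p = 0.00563), whereas Imp4, which binds the U3 RNA with it, was at 0.079 (SE 0.043, adjusted p = 0.313). Utp6 was the only 40S member below 0, at -0.063 (SE 0.073, adjusted p = 0.722), with repeats at -0.24, 0.090 and -0.045, and its 2 dimmer probe sets were at 0.072 and -0.052. Of the other 40S genes, Rcl1, Utp20, Rrp12, Noc4l, Wdr75, Wdr3, Nop14 and Utp18 were higher, by 0.22 in Rcl1 to 0.45 in Utp18. Wdr36 was at 0.36 (adjusted p = 0.0556), Utp14a at 0.18 (adjusted p = 0.0907) and Ddx10 at 0.14 (adjusted p = 0.165), and the first 2 of these passed with the repeat as a block (adjusted p = 8.74e-04 and 0.0118) but not with 1 value per repeat (adjusted p = 0.0808 and 0.332). Without repeat b the calls of Dimt1, Utp15, Nop14, Wdr3, Wdr75, Utp18, Utp20, Rrp12, Rcl1, Nob1 and Noc4l were lost, without repeat c those of Imp3, Nob1, Wdr3, Wdr75 and Utp18, and without repeat a those of Rcl1 and Rrp12. With 1 value per repeat the calls of Imp3, Nob1, Noc4l, Nop14, Rcl1, Rrp12, Utp18, Utp20, Wdr3 and Wdr75 were lost.

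Of the 22 tested genes of 60S assembly, 14 were higher over hours 5 to 8 (4.69% of all genes) and 0 lower (6.50%). The median was 0.30, with a range from 0.13 to 0.61. Gnl3, a nucleolar GTPase also called nucleostemin whose promoter is shown above, had the smallest p-value. It read 9.80 to 10.39 with a median of 10.16 on insulin arrays and 9.20 to 9.77 with a median of 9.55 on control arrays, without overlap. Its difference was 0.61 (SE 0.085, limma adjusted p = 2.32e-06), or 1.53-fold, and 0.63, 0.66 and 0.54 in repeats a, b and c. Rrs1 and Rpf2 bring the 5S RNA particle to the growing subunit. Rrs1 read 8.50 to 9.05 with a median of 8.81 on insulin arrays and 7.93 to 8.75 with a median of 8.17 on control arrays, and was higher by 0.58 (SE 0.093, adjusted p = 2.26e-05). Its overlap came from 1 control array, that of hour 7 in repeat a, at 8.75. Rpf2 was higher by 0.56 (SE 0.11, adjusted p = 5.52e-04) without overlap, and did not pass without repeat b.

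Ppan, needed for an early step of 60S processing, was higher by 0.61 (SE 0.11, adjusted p = 1.45e-04), and Nop2, which methylates a cytidine of the large ribosomal RNA, by 0.56 (SE 0.11, adjusted p = 2.89e-04). Of the 3 proteins of the complex called PeBoW, Wdr12 was higher by 0.40 (SE 0.088, adjusted p = 0.00176) and Bop1 by 0.30 (SE 0.088, adjusted p = 0.0241), while Pes1 was at 0.13 (SE 0.062, adjusted p = 0.248), with -0.047 in repeat c. Whether the 3 differ from each other was not tested. Nmd3, the adaptor for nuclear export of the 60S subunit, was higher by 0.29 (SE 0.080, adjusted p = 0.0139). Wdr12 and Nmd3 did not pass without repeat b or without repeat c, and Bop1 not without any 1 of the repeats. None of Wdr12, Nmd3 and Bop1 passed with 1 value per repeat. The other 60S genes that were higher ran from 0.25 in Brix1, with 0.27 in Nle1, 0.28 in Grwd1, 0.32 in Noc2l and 0.37 in Wdr74, to 0.44 in Nip7. All of these lost their call without repeat b, and all but Wdr74 with 1 value per repeat. All but Noc2l also lost it without repeat c, and Nle1 also without repeat a. Those that did not pass ran from 0.13 in Pes1 to 0.35 in Ebna1bp2, and of these 8 genes Rrp1, Nop16, Rrp15, Rrp1b, Mrto4 and Ebna1bp2 passed with the repeat as a block, but none of the 8 with 1 value per repeat. Noc3l had the lowest level of the list, 4.09 on average, under the lowest tested level, and was not tested. It read 3.65 to 4.51 with a median of 4.11 on insulin arrays and 3.61 to 4.12 with a median of 3.89 on control arrays, overlapping ranges near the background of the arrays.

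Among the factors of several nucleolar steps, the RNA helicase Ddx21 and the nucleolar protein Lyar were higher with insulin. Ddx21 read 10.32 to 10.66 with a median of 10.62 on insulin arrays and 9.75 to 10.27 with a median of 10.11 on control arrays, without overlap, and its difference was 0.53 (SE 0.083, limma adjusted p = 1.76e-05). Lyar read 9.32 to 9.69 with a median of 9.46 on insulin arrays and 8.84 to 9.35 with a median of 9.13 on control arrays, which overlapped by little, and was higher by 0.36 (SE 0.099, adjusted p = 0.0140). Lyar did not pass without repeat b or without the arrays of repeat b at hours 0 to 5. Nucleolin, encoded by Ncl, is an abundant protein of the nucleolus that binds the precursor RNA, and its probe set had the highest log2 level of the list, 12.04. Ncl read 11.97 to 12.26 with a median of 12.12 on insulin arrays and 11.77 to 12.17 with a median of 11.88 on control arrays. Insulin was higher in 12 of 12 pairs, and the difference of 0.19 (SE 0.065) had an adjusted p of 0.0519 (5.72e-05 with the repeat as a block and 0.143 with 1 value per repeat). Heatr1, Ddx21, Gnl3, Lyar and Nip7 are among the genes that the study selected on these arrays, so their direction is not independent evidence.

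Other genes of the same process were listed by their known roles, with earlier results of these data known. Of 89 further ribosome biogenesis genes tested, 32 were higher over hours 5 to 8 (4.69% of all genes) and 1 was lower (6.50% of all genes), with a median of 0.17. The 4 with the smallest p-values were all higher: Gtpbp4, a GTPase of 60S assembly, by 0.58 (SE 0.089, limma adjusted p = 1.14e-05), Utp4, a partner of Heatr1 in the processome, by 0.40 (SE 0.065, adjusted p = 2.57e-05), Nifk by 0.38 (SE 0.062, adjusted p = 2.68e-05) and Nol10 by 0.28 (SE 0.044, adjusted p = 1.75e-05). The 1 that was lower was Nop53, a late 60S factor, at -0.30 (SE 0.056, adjusted p = 2.49e-04), which is named because its count is 1.

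Of 14 genes of RNA polymerase I and its initiation factors, 5 were higher over hours 5 to 8 (4.69% of all genes) and 0 lower (6.50% of all genes), with a median of 0.18. Polr1e was higher by 0.58 (SE 0.089, limma adjusted p = 1.30e-05), Polr1b, the second-largest subunit, by 0.45 (SE 0.083, adjusted p = 1.85e-04), Polr1f by 0.42 (SE 0.076, adjusted p = 1.33e-04) and Taf1d, a subunit of the selectivity factor that recruits the enzyme, by 0.55 (SE 0.088, adjusted p = 2.35e-05). In the control culture Polr1e, Polr1b and Taf1d were lower over hours 5 to 8 than at time 0 (adjusted p = 0.0104, 0.0247 and 0.00191), as 3.05% of all genes were. Among the 56 genes this comparison had 0 calls without repeat b. Polr1e, Polr1b and Taf1d are given in the full fit only, without values by repeat.

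In the MYC network, the transcription factors that bind the E-box with MAX, 1 of 9 tested genes was higher over hours 5 to 8 (4.69% of all genes) and 4 were lower (6.50% of all genes). Myc itself averaged 8.22 on insulin arrays and 7.38 on control arrays, a difference of 0.84 (SE 0.16, limma adjusted p = 3.77e-04). The 4 lower genes were the repressors Mxi1, Mxd4, Mxd1 and Mnt. Mxi1 averaged 9.16 on insulin arrays and 10.1 on control arrays, a difference of -0.90 (SE 0.065, adjusted p = 1.51e-12), Mxd4 was at -0.74 (SE 0.14, adjusted p = 3.55e-04) and Mxd1 at -0.19 (SE 0.053, adjusted p = 0.0127). In the control culture Myc was lower over hours 5 to 8 than at time 0, a change of -1.28 (adjusted p = 9.92e-04), and Mxi1 was higher by 0.59 (adjusted p = 2.27e-04). Both changes from time 0 are given in the full fit only, without values by repeat. Whether these genes bear on the ribosome biogenesis genes was not tested.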

How the data were processed

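The deposited values are log2 expression levels of 31099 probe sets on 53 arrays, for which the authors subtracted background, applied quantile normalization and summarized probes with RMA (version not given in the sources used here). The authors' detection calls were not used here; the 21958 probe sets with the highest mean, without 57 controls of the manufacturer, were tested instead. Of all probe sets 20832 had 1 gene symbol, 436 several and 9831 none. The linear model held 1 mean per culture and hour (limma 3.58.1 under R 4.3.3). It used a variance trend, two-sided tests, Benjamini-Hochberg over all tested probe sets and a threshold of 0.05. The fit was also run on simulated arrays with independent noise, which does not check it for correlated arrays of 1 repeat. Tables were made with Python 3.11.15. Arrays of 1 repeat at different hours enter as separate samples. The repeats, lettered a, b and c, were separate days, and deviations from the group mean correlated between arrays of 1 letter in all 26 pairs (0.21 to 0.79), so fits with the letter as a block were run as well. Other alternatives were 1 value per letter, leaving out letters, filters, centring and the variance prior. A further fit left out letter b at hours 0 to 5, where its pairs correlated at 0.21 to 0.41. At hours 6, 7 and 8 the pairs of letter b correlated at 0.61, 0.52 and 0.44, and those of letters a and c at 0.39 to 0.79 over all hours. Percentages of all genes refer to 11577 genes at their brightest tested probe set. For tests they are from the fit with 1 mean per culture and hour, or with the block where the block is named. Counts under the other alternatives or at an unadjusted p have no such share beside them. Counts of genes above or below 0 have none either, apart from that of genes above 0 in every repeat. Values by array are given for the 2 genes of each role with the smallest p over hours 5 to 8 (1 where a role has under 4), for genes called lower, and for the highest and lowest level; for related lists the 4 smallest p-values are named. The members and lists were chosen with earlier results of these data known. The number of arrays limits the precision. Promoter windows are those of RefSeq on GRCr8.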

Additional observations from a re-analysis of the deposited data

Results flagged for a closer look

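The insulin minus control difference at hours 5 to 8 exceeded that at hours 1 and 2 in 15 genes by the limma test of the change itself, against 1.17% of all genes. The change was 0.62 in Nop56, 0.64 in Nop58, 0.57 in Dkc1 and 0.65 in Nolc1 among the proteins of small nucleolar RNPs. Among 40S factors it was 0.44 in Wdr43, 0.46 in Heatr1, 0.61 in Rrp9 and 0.52 in Bysl. Among 60S factors it was 0.69 in Nop2, 0.65 in Rrs1, 0.58 in Gnl3, 0.46 in Noc2l, 0.50 in Nle1 and 0.78 in Ppan. In Ddx21 it was 0.52. All 15 also passed with the letter as a block, and 0 did with 1 value per letter, without letter b, or with its arrays of hours 0 to 5 alone left out. Without letter c only Nop56 and Nop58 of the 15 passed, without letter a 14 did, and with no filter on low values 9 did. Groups of 3 arrays were not searched for arrays that stand apart.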

How the results depend on the processing

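Of the 56 differences over hours 5 to 8, 1 changed sign under an alternative: Utp6 was at -0.14 to 0.023 when 1 letter was left out, above 0 without letter a. For hours 1 to 8 the count of higher genes was 2 with 1 value per letter, 21 without letter b at hours 0 to 5 and 8 to 35 when 1 letter was left out, and the count of lower genes was 0 in the first 2 of these and 0 to 1 in the last. For hours 5 to 8 it was 20 with 1 value per letter, 0 relative to time 0 and 14 to 40 when 1 letter was left out. For hours 1 and 2, the block by letter gave 1 lower gene and there were 0 to 1 when 1 letter was left out. The early-to-late count was 33 with the block, 0 with 1 value per letter, 0 when letter b was left out at hours 0 to 5, 9 with no filter and 0 to 20 when 1 letter was left out. In the control culture against time 0 it was 38 with the block, 10 with 1 value per letter, 2 without letter b at hours 0 to 5 and 0 to 41 when 1 letter was left out, and in the insulin culture 2 were lower with the block. At 1 or more single hours the block called 27 genes, the fit lacking the early arrays of letter b called 1, and the count was 0 to 6 when 1 letter was left out; the fit with 1 value per letter was not run for them. Changes beyond fewer arrays or fewer tested probe sets have a cause that was not tested. Centring of arrays, the brighter probe sets alone and a variance prior without trend kept these counts within 1.5 times.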

Other observations

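The dimmer probe sets of the same genes gave a second reading. Of 19 dimmer tested probe sets in 14 genes, 18 had a difference above 0 over hours 5 to 8, 9 were higher by limma and 0 were lower. Of all genes at their brightest probe set 4.69% were higher and 6.50% lower. Nop56 was at 0.64 at its dimmer probe set and 0.60 at the brighter one. Nolc1 was at 0.62 and 0.35 at its dimmer probe sets, the second with an adjusted p of 0.182, and Ddx21 at 0.42. Probe sets of 1 gene are read from the same arrays and are not replicates.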
